A study of Mus musculus with 6 samples.

Results

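In all, 10 genes were followed here: the peroxisome proliferator-activated receptor gamma coactivator 1 (PGC1) family, which consists of Ppargc1a (PGC1α), Ppargc1b (PGC1β) and Pprc1 (PRC), and 7 further regulators of mitochondrial biogenesis, Nrf1, Gabpa, Esrra, Tfam, Tfb2m, Tfb1m and Polg. They were taken by gene symbol, and all 10 were found among the 52550 genes of the deposited count table. RNA-seq counts covered MSR1 KO and MSR1 WT macrophages, with 3 libraries per genotype. Both groups were bone marrow-derived macrophages of C57BL/6 mice, grown for 7 days with 25 ng/ml macrophage colony-stimulating factor and then kept for 48 h in a transwell system with bone marrow stem cells (BMSCs). The MSR1 KO mice lacked macrophage scavenger receptor 1, and no macrophages without BMSCs were analysed here. The question was which PGC1 transcript these macrophages carried, and whether the PGC1 family and the genes downstream of it differed between the genotypes.

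Mitochondrial biogenesis needs genes of the nucleus and of the mitochondrial genome (mtDNA) to be expressed together. PGC1 coactivators bind no DNA themselves but join transcription factors such as nuclear respiratory factor 1 (Nrf1), GA-binding protein (Gabpa, also called NRF2) and estrogen-related receptor alpha (Esrra) on nuclear genes of the respiratory chain. Some of these nuclear genes, among them Tfam, Tfb2m, Tfb1m and Polg, encode the proteins that copy, transcribe and translate the mitochondrial genome. In macrophages, oxidative metabolism and PGC1β are known from alternative (M2-like) activation.

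Total counts ranged from 36143518 to 47417448 per library, and counts are given below as CPM, that is, scaled to a common library size by the TMM method, with levels compared between genes per kb of exon. Msr1 itself had 2118, 1825 and 2000 counts across the MSR1 KO replicates and 7543, 9163 and 9219 counts across the MSR1 WT replicates, so reads on it were fewer but did not vanish. All 12 macrophage markers checked (such as Adgre1, Csf1r and Cd68) were detected, with a summed level of 24496 to 25422 CPM in MSR1 KO and 24272 to 26822 CPM in MSR1 WT libraries, of which Lyz2 alone made up a mean of 14155 CPM. Of the 12, 3 (Fcgr1, Ptprc and Aif1) were higher and 0 lower in MSR1 KO at an adjusted p under 0.05 in edgeR's test, 7 had an unadjusted p under 0.05, and 7 were higher with no overlap between the groups. For comparison with this and the next lists, 4.91% of all tested genes passed the adjusted edgeR test and 18.9% had an unadjusted p under 0.05. Without overlap, 12.1% of all tested genes were higher and 13.4% lower. All 22 stromal markers were detected as well, at 3260 to 4135 CPM in MSR1 KO and 4490 to 5479 CPM in MSR1 WT libraries. Of these, 8 were lower in MSR1 KO and 0 higher at an adjusted p under 0.05 in edgeR's quasi-likelihood test, and 15 of the 22 had an unadjusted p under 0.05. The stromal list was not uniform, with 17 log2 fold changes below 0 and 5 above, the highest 1.31. Without overlap between the groups, 11 stromal markers were lower and 2 higher. The 22 proliferation markers summed to 688 to 774 CPM against 826 to 1340 CPM (2 lower, 0 higher, 19 at an unadjusted p under 0.05 in the same edgeR test), and 20 interferon-response genes summed to 3882 to 5559 CPM against 1398 to 2408 CPM (18 higher, 0 lower in the same edgeR test). Among markers of other blood cells, 0 of the 9 tested passed the edgeR test (1 at an unadjusted p under 0.05), and the sum was 253 to 430 CPM in MSR1 KO and 188 to 306 CPM in MSR1 WT libraries. The part of these differences in the results below was not tested, and in bulk RNA fewer cells of a type cannot be told apart from less RNA per cell.

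Pprc1 was the main PGC1 transcript in these macrophages, Ppargc1b was a minor transcript, and Ppargc1a had no read in 4 of 6 libraries and 5 in each of the others. Ppargc1a (ENSMUSG00000029167.13, GRCm38 chromosome 5 from 51454250 to 51567726) encodes the coactivator best known from muscle, liver and brown fat. It had 0, 0 and 0 counts across the MSR1 KO replicates and 0, 5 and 5 counts across the MSR1 WT replicates. Finding 0 reads leaves room for up to 3, or 0.0645 to 0.0835 CPM across the MSR1 KO replicates, against a mean of 0.0755 ± 0.0658 CPM (SD, n = 3) over the MSR1 WT replicates. A genotype difference was therefore not detectable at this depth (exact permutation test, two-sided p = 0.4, where 0.1 is the smallest p that 3 libraries against 3 allow).

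Ppargc1b (ENSMUSG00000033871.14, chromosome 18 from 61298136 to 61400431) encodes the coactivator most often linked to oxidative metabolism of alternatively activated macrophages. It had 102, 104 and 102 counts across the MSR1 KO replicates and 74, 81 and 125 counts across the MSR1 WT replicates. The MSR1 KO libraries were close together, whereas MSR1 WT replicate 3 was above all of them and the other MSR1 WT libraries were below all of them. Pprc1 (ENSMUSG00000055491.13, chromosome 19 from 46044886 to 46072915) encodes PRC, a family member known for its early induction when cells are stimulated to grow. It had 1218, 1432 and 1317 counts across the MSR1 KO replicates and 994, 2150 and 1787 counts across the MSR1 WT replicates. Here MSR1 WT replicate 1 was the lowest library and the other MSR1 WT libraries were the highest, so the groups overlapped.

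Per kb of exon, the level of Pprc1 was 9.44 times that of Ppargc1b (geometric mean over 6 libraries), and it was higher in 6 of 6 libraries. The mean log2 ratio was 3.24 ± 0.419 (SD, n = 6; exact sign-flip permutation test over libraries, two-sided p = 0.031, the smallest that 6 libraries allow). The ratio was 7.58, 8.74 and 8.20 across the MSR1 KO replicates and 8.53, 16.9 and 9.08 across the MSR1 WT replicates. MSR1 WT replicate 2 thus stood above the other 5 libraries, and its 95% counting interval (13.5 to 21.3, from the exact binomial interval of the counts) did not reach theirs, the highest of which ended at 10.97. Pprc1 made up 88.3% to 89.7% of the summed level of the 3 family members per kb in MSR1 KO libraries and 89.5% to 94.2% in MSR1 WT libraries. With exon lengths taken from the longest transcript the ratio was 10.4, and without any length, from counts alone, it was 14.9. The log2 ratio was 3.03 ± 0.103 (SD, n = 3) in MSR1 KO and 3.45 ± 0.543 (SD, n = 3) in MSR1 WT libraries, a difference of -0.42 (exact permutation test, two-sided p = 0.2). The groups overlapped, as MSR1 WT replicate 1 (8.53) was below MSR1 KO replicate 2 (8.74). With 3 libraries against 3 the test cannot give a p below 0.1, so it does not decide whether the genotypes differ in this ratio. Without MSR1 WT replicate 2 the difference was -0.11, but it was -0.60 without MSR1 WT replicate 1 and -0.56 without MSR1 WT replicate 3.

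**Figure D1:**
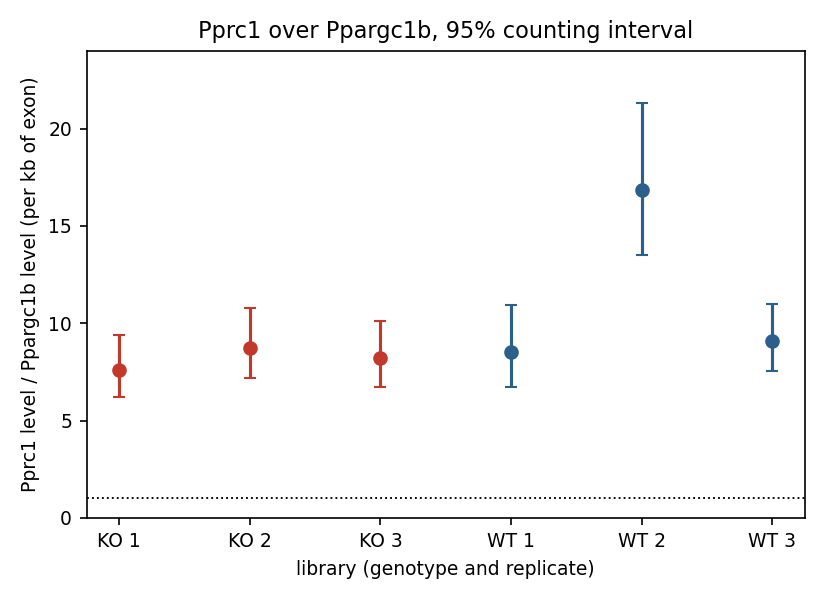
Ratio of the Pprc1 level to the Ppargc1b level, both per kb of exon, in each of the 6 libraries (red, MSR1 KO; blue, MSR1 WT), with bars for the 95% counting interval and a dotted line at equal levels. All libraries lie far above equality, between 7.58 and 16.9, and MSR1 WT replicate 2 is the highest.

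Ppargc1b in turn exceeded Ppargc1a. In the 4 libraries without a Ppargc1a read, the level of Ppargc1b per kb was at least 40.8-fold higher (MSR1 WT replicate 1) to at least 57.3-fold higher (MSR1 KO replicate 2), taking 3 counts per library as the limit for Ppargc1a. In MSR1 WT replicates 2 and 3, with 5 counts of Ppargc1a each, the ratios were 26.8 (95% exact counting interval 11.01 to 84.6) and 41.3 (17.2 to 129). The order Pprc1, Ppargc1b, Ppargc1a was the same in all 6 libraries.

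The bases upstream of the RefSeq starts of Ppargc1a and Pprc1 are shown because these genes stand at the ends of that order. Both are 250 bases on GRCm38.p6, written on the gene's strand, with no capitals because none of the 6 motifs searched was found: the consensus palindrome of NRF1, CCGGAAG (GABP), AAGGTCA (ERR), TGACGTCA (CRE), CTTTGAT (TCF/LEF) and CACGTG (E-box), on both strands. They lie at chr5:51567726-51567975 (minus strand) for Ppargc1a and at chr19:46056289-46056538 (plus strand) for Pprc1, whose RefSeq start is 11653 bases inside the gene as the deposited table bounds it. G and C made up 48.0% of the first and 45.2% of the second.
Ppargc1a: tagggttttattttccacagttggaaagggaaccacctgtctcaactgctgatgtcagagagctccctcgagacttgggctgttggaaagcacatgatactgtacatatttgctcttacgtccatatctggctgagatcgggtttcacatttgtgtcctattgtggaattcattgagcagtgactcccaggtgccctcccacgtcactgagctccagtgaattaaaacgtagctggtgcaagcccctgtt
Pprc1: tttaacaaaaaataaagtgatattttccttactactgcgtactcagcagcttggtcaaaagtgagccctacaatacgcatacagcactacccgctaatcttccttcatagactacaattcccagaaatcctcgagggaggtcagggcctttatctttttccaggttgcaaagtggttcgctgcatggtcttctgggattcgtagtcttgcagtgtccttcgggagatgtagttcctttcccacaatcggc

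None of the 9 members that could be tested passed the test between genotypes. At an adjusted p under 0.05 in edgeR's quasi-likelihood test, 0 were higher and 0 lower in MSR1 KO, against 4.91% of all 16402 tested genes (2.25% higher and 2.66% lower). At an unadjusted p under 0.05 in the same test, 1 of the 9 (Tfb2m) would have passed, against 18.9% of all tested genes, and DESeq2's Wald test gave 0 members at an adjusted p under 0.05 (9.56% of all tested genes) and 1 at an unadjusted p under 0.05 (18.9%). No member met the study's definition of a differentially expressed gene (more than 1.5-fold in either direction with an unadjusted p under 0.05), which 8.64% of tested genes met. The fold changes were small, with 7 negative and 2 positive log2 values and a median of -0.07, against -0.0023 over all tested genes. Ppargc1a was left out of the test by the filter on low counts.

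**Figure D2:**
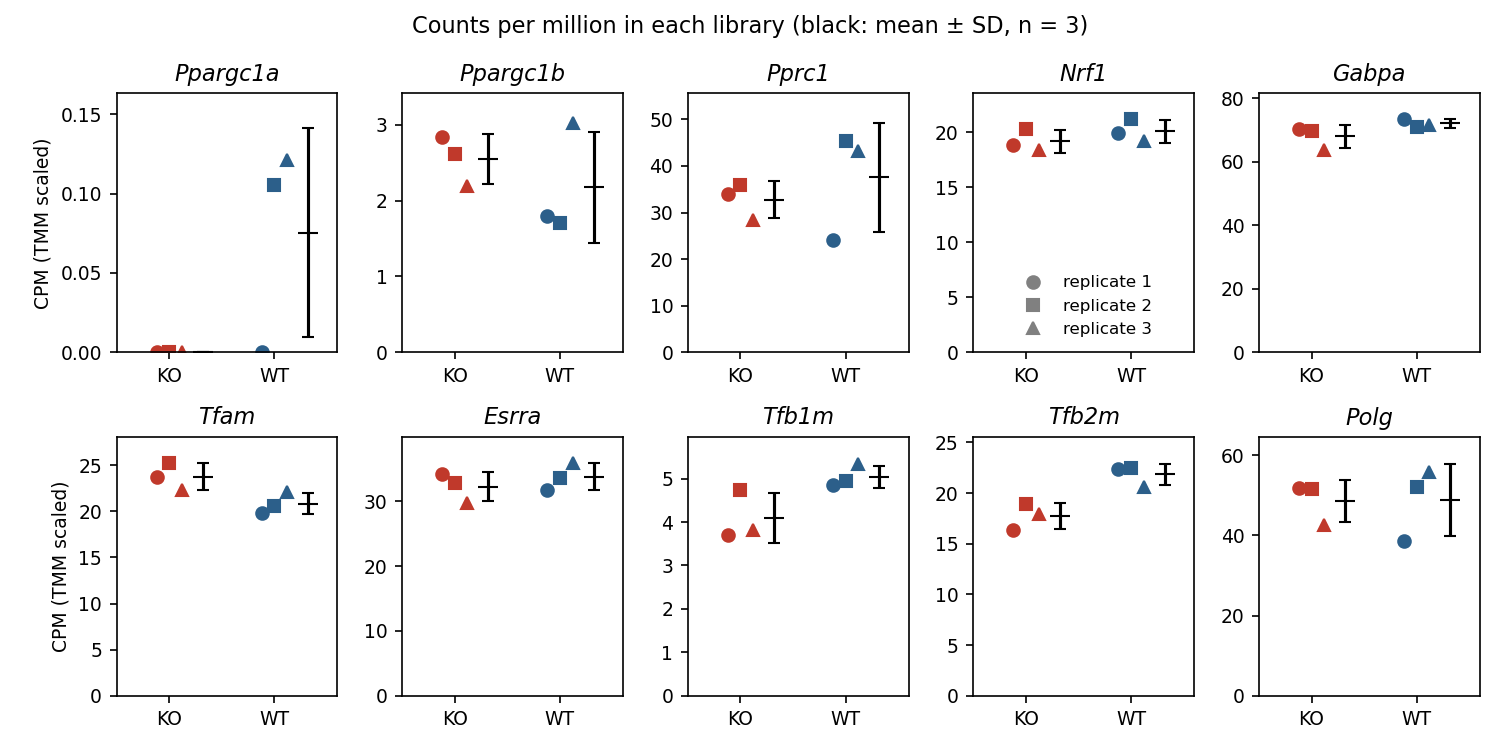
CPM in each MSR1 KO (red) and MSR1 WT (blue) library for the 10 genes, each panel on its own axis from 0, with the replicate number as the symbol and the mean ± SD (n = 3) in black. The groups lie apart in the panels of Tfam (higher in MSR1 KO), Gabpa, Tfb1m and Tfb2m (lower), and the 2 libraries with Ppargc1a reads are MSR1 WT replicates 2 and 3.

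Within the PGC1 family, the level of Ppargc1b was 2.55 ± 0.327 CPM in MSR1 KO against 2.18 ± 0.737 CPM in MSR1 WT macrophages (SD, n = 3 each). Its log2 fold change was 0.23 (standard error 0.285, 95% interval -0.43 to 0.88, adjusted p = 0.741 from edgeR), and the upper end of the interval is a 1.84-fold difference. The level of Pprc1 was 32.7 ± 3.95 CPM in MSR1 KO against 37.6 ± 11.7 CPM in MSR1 WT macrophages (SD, n = 3 each), and the log2 fold change was -0.20 (standard error 0.221, 95% interval -0.71 to 0.31, adjusted p = 0.701 from edgeR). Both genes varied most among the MSR1 WT libraries. The coefficient of variation of Pprc1 was 31.1% there, where counting error alone would give 2.47%, and 12.1% in MSR1 KO libraries. That of Ppargc1b was 33.9% in MSR1 WT against 10.4% from counting error, and 12.8% in MSR1 KO libraries. Single libraries accordingly moved these values, and the log2 fold change of Pprc1 was -0.44 without MSR1 WT replicate 1 and -0.04 without MSR1 WT replicate 2, while that of Ppargc1b was 0.54 without MSR1 WT replicate 3 and 0.08 without MSR1 WT replicate 2. None of these passed the test.

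The transcription factors through which the coactivators act were close between the genotypes, and none passed the test. Gabpa (ENSMUSG00000008976.16, chromosome 16 from 84834925 to 84863779) encodes the DNA-binding subunit of GABP. It was at 70.4, 69.8 and 63.8 CPM across the MSR1 KO replicates and 73.6, 71.0 and 71.6 CPM across the MSR1 WT replicates. Every MSR1 KO library was below every MSR1 WT library, but by little, with a log2 fold change of -0.08 (standard error 0.0737, 95% interval -0.25 to 0.09, adjusted p = 0.609 from edgeR). Nrf1 (ENSMUSG00000058440.14, chromosome 6 from 30047988 to 30153458) is a factor for genes of the respiratory chain and of mtDNA expression. It was at 18.8, 20.3 and 18.4 CPM in MSR1 KO and 19.9, 21.2 and 19.2 CPM in MSR1 WT libraries, which overlapped (log2 fold change -0.07, standard error 0.0977, 95% interval -0.29 to 0.16, adjusted p = 0.774 from edgeR). Esrra (ENSMUSG00000024955.13, chromosome 19 from 6910977 to 6921813) encodes an orphan nuclear receptor that PGC1 coactivators switch on in place of a hormone. It was at 34.2, 32.8 and 29.8 CPM in MSR1 KO and 31.8, 33.5 and 36.0 CPM in MSR1 WT libraries, again with overlap (log2 fold change -0.07, standard error 0.0917, 95% interval -0.28 to 0.14, adjusted p = 0.766 from edgeR). For all 3 factors the 95% interval lay inside a 1.5-fold change in either direction.

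Among the proteins that act on mtDNA, Tfb2m and Tfam had log2 fold changes of opposite sign, and neither passed the adjusted test. Tfb2m (ENSMUSG00000026492.11, chromosome 1 from 179528055 to 179546267) is needed by the mitochondrial RNA polymerase to open promoters. It was at 16.4, 18.9 and 17.9 CPM across the MSR1 KO replicates and 22.4, 22.5 and 20.6 CPM across the MSR1 WT replicates. All MSR1 KO libraries were below all MSR1 WT libraries, and the log2 fold change was -0.30 (standard error 0.101, 95% interval -0.53 to -0.07), with an unadjusted p = 0.0174 and an adjusted p = 0.148, both from edgeR. The adjusted p ranged from 0.111 to 0.358 over the 12 alternatives, and the log2 fold change from -0.35 to -0.24. Tfam (ENSMUSG00000003923.14, chromosome 10 from 71225464 to 71238280) packages mtDNA and bends it at promoters. It was at 23.8, 25.2 and 22.3 CPM across the MSR1 KO replicates and 19.9, 20.6 and 22.1 CPM across the MSR1 WT replicates. All MSR1 KO libraries were above all MSR1 WT libraries, the closest pair by a small margin, and the log2 fold change was 0.19 (standard error 0.0964, 95% interval -0.03 to 0.41, adjusted p = 0.341 from edgeR).

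Set within each library, which is free of the scaling between libraries, the ratio of Tfam counts to Tfb2m counts was 1.45, 1.33 and 1.24 across the MSR1 KO replicates and 0.887, 0.914 and 1.07 across the MSR1 WT replicates. The ratio was thus higher in each MSR1 KO library than in each MSR1 WT library. This ratio was chosen after the values of both genes had been seen, so it is given as a description with no test.

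Tfb1m (ENSMUSG00000036983.6, chromosome 17 from 3519263 to 3557713) modifies the small ribosomal RNA of mitochondria and so serves their ribosomes. It had few reads, at 3.70, 4.75 and 3.81 CPM in the MSR1 KO and 4.85, 4.95 and 5.33 CPM across the MSR1 WT replicates. The groups did not overlap but lay close, and the log2 fold change of -0.30 was close to that of Tfb2m but less certain (standard error 0.174, 95% interval -0.70 to 0.10, adjusted p = 0.407 from edgeR). Polg (ENSMUSG00000039176.17, chromosome 7 from 79446231 to 79466362) encodes the catalytic subunit of the mtDNA polymerase. It was at 51.9, 51.5 and 42.6 CPM in MSR1 KO and 38.7, 52.0 and 55.7 CPM in MSR1 WT libraries. As for Pprc1, MSR1 WT replicate 1 was the lowest library, the groups overlapped, and the log2 fold change was -0.0044 (standard error 0.145, 95% interval -0.34 to 0.33, adjusted p = 0.993 from edgeR), a sign that turned with DESeq2's size factors (0.00077) but not with library size alone (-0.04).

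Over the 9 tested members, 3 (Gabpa, Tfb1m and Tfb2m) were lower and 1 (Tfam) was higher in MSR1 KO with no overlap between the groups. That is 44.4% of the 9, where 25.5% of all tested genes had groups that did not overlap (13.4% lower and 12.1% higher). For 6 members the 95% interval of the difference lay inside a 1.5-fold change in either direction, and for Ppargc1b, Pprc1 and Tfb1m it reached beyond that.

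**Figure D3:**
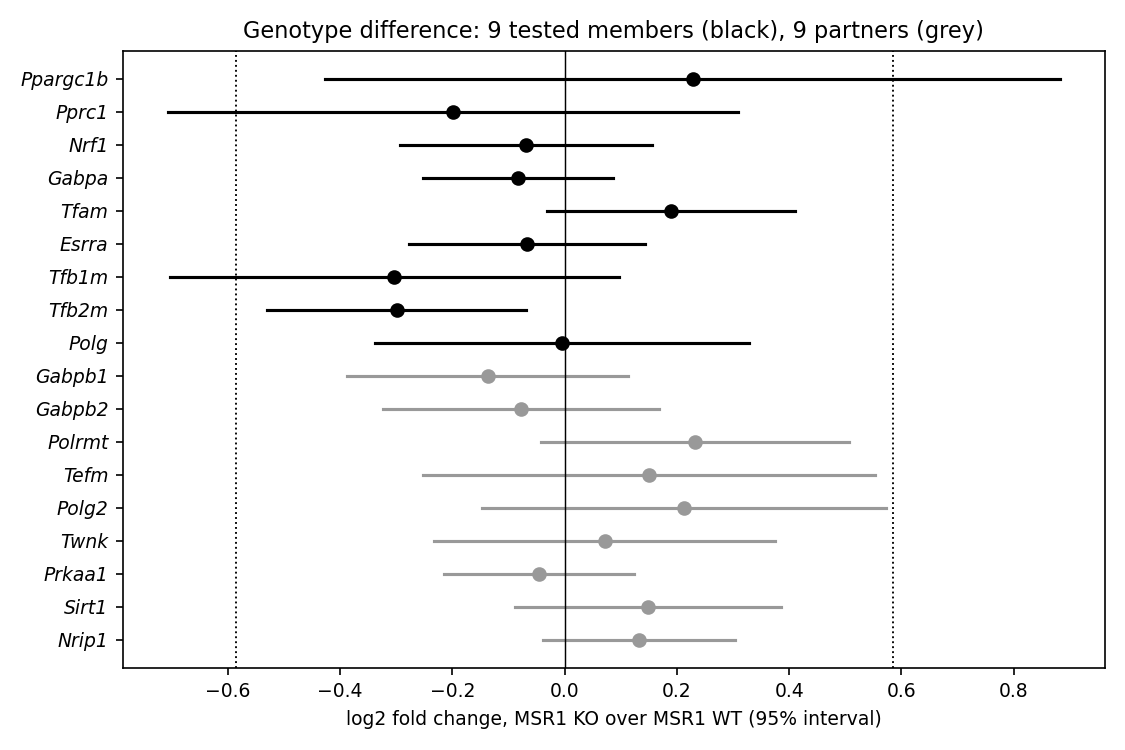
Log2 fold change of MSR1 KO over MSR1 WT with its 95% interval for the 9 tested members (black) and 9 partners named in the text (grey), with dotted lines at a 1.5-fold change. The interval of Tfb2m (-0.53 to -0.07) is the only one that leaves out 0, and those of Ppargc1b, Pprc1 and Tfb1m cross a dotted line.

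The 250 bases upstream of the RefSeq starts of Tfam and Tfb2m are shown because these genes act on the same mitochondrial promoters and had log2 fold changes of opposite sign. They lie at chr10:71238045-71238294 and chr1:179546277-179546526 (GRCm38.p6, both minus strand, written 5′ to 3′ on the gene's strand). Capitals mark a match to the exact string CCGGAAG, searched here for GABP. Tfam held 1 match, which began 47 bases before the start (position -47), and Tfb2m held no match to this string. The shorter GGAAG does occur in the Tfb2m window, so a missing exact match does not show that Tfb2m lacks a GABP site. The RefSeq start of Tfam is 236 bases inside the gene bounds given above, so most of its window lies within them. G and C made up 72.0% and 69.2% of the windows.
Tfam: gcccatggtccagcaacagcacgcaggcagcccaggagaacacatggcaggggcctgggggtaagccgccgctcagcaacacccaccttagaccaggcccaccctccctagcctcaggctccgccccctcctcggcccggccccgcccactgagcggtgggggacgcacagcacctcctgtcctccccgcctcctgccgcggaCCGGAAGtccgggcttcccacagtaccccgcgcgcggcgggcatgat
Tfb2m: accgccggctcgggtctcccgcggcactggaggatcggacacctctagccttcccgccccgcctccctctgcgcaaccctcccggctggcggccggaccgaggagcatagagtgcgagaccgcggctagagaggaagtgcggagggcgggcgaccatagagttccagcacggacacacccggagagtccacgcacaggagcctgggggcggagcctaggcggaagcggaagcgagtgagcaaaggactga

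RefSeq windows were at hand for 9 of the 10 members, all but Ppargc1b, and Nrf1 had 2 of them. CCGGAAG or its reverse complement was in the windows of 3 members, Tfam, Polg (beginning at position -38) and Gabpa itself (position -93, on the other strand), and in 6.91% of all 32851 promoter windows of the same length. The RefSeq starts of Gabpa and Polg, like that of Tfam, lie inside the gene bounds given above, by 199 and 89 bases. All 3 matches fall within those bounds. The remaining motifs were in none of the members' windows. They were in 0.782% (NRF1), 4.08% (ERR), 1.55% (CRE), 3.21% (TCF/LEF) and 6.02% (E-box) of all windows. These are matches of letters, and binding was not measured here.

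In level per kb of exon, the members spanned a wide range. Gabpa was the highest, at a mean of 12.3 CPM per kb (76.5th percentile of the tested genes), and its lowest library (11.2) was above the highest library of Esrra (8.21). Esrra (mean 7.53), Tfb2m (7.06), Pprc1 (5.59), Tfam (5.03) and Polg (4.54) followed. The ranges of each pair of neighbours in this run overlapped over the 6 libraries, so the order of neighbours was not resolved, although Tfb2m was above Pprc1 within each library. Farther apart in the run, Esrra (lowest library 6.79) and Tfb2m (5.85) were each above all libraries of Tfam (highest 5.69) and Polg (5.19). Below a gap came Nrf1 (1.91, 36.5th percentile), Tfb1m (1.26) and Ppargc1b (0.592, 19.8th percentile), each separate from its neighbours in all 6 libraries. Ppargc1a was last. With lengths from the longest transcript in place of all exons, Polg and Tfam changed places, the level of Nrf1 was 4.86 and the gap between Gabpa (14.0) and Esrra (13.3) nearly closed.

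**Figure D4:**
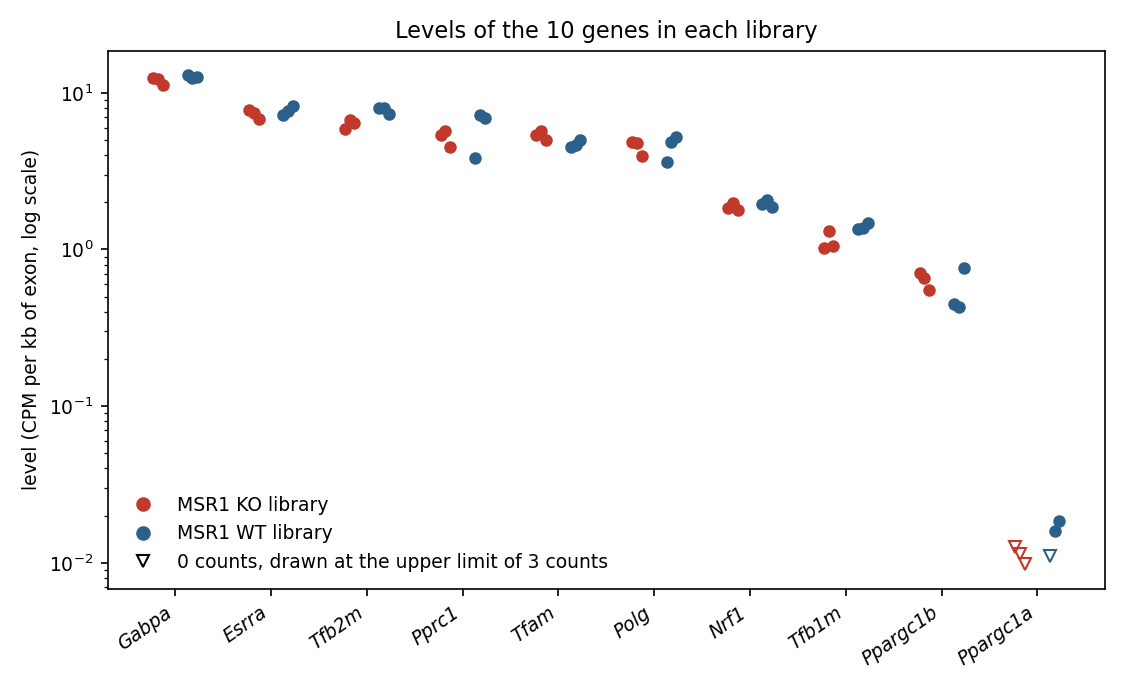
Level of each gene in each library in CPM per kb of exon on a log scale (red, MSR1 KO; blue, MSR1 WT), ordered by mean, with open triangles for libraries that had 0 counts, drawn at the limit of 3 counts. Gabpa is highest at a mean of 12.3, Ppargc1b lies at 0.592, and Ppargc1a lies far below the other 9.

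Of 11 direct partners of the members, the 9 that could be tested did not pass the test either. Gabpb1 and Gabpb2, the alternative partner subunits of Gabpa, had log2 fold changes of -0.14 (95% interval -0.39 to 0.11) and -0.08 (-0.32 to 0.17). Polrmt, the mitochondrial RNA polymerase that works with Tfam and Tfb2m, had 831, 1129 and 1111 counts in MSR1 KO and 787, 1103 and 903 counts in MSR1 WT libraries, and its log2 fold change was 0.23 (95% interval -0.04 to 0.51, adjusted p = 0.348 from edgeR), and its elongation factor Tefm had 0.15 (-0.25 to 0.55). Polg2, the accessory subunit of the mtDNA polymerase, and Twnk, the mtDNA helicase, had log2 fold changes of 0.21 (95% interval -0.15 to 0.57) and 0.07 (-0.23 to 0.37). For Prkaa1 (a catalytic subunit of AMPK) the value was -0.05, for Sirt1 (a deacetylase of PGC1α) 0.15 and for Nrip1 (a corepressor that opposes PGC1) 0.13, with adjusted p-values of 0.806, 0.504 and 0.394 from edgeR. The other members of the Esrra subfamily were barely detected, with 0 counts of Esrrb in every library and 5 counts of Esrrg in MSR1 WT replicate 2 alone.

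Beyond these, 8 hand-written lists of genes around mitochondrial biogenesis held 280 tested genes, of which 2 were higher and 1 was lower in MSR1 KO at an adjusted p under 0.05 in edgeR's quasi-likelihood test. These 3 genes are 1.07% of the 280, against 4.91% of all tested genes, and 11.4% of the 280 against 18.9% of all tested genes had an unadjusted p under 0.05. The median log2 fold change over the 280 genes was 0.04, with 179 values above and 101 below 0 and single genes between -1.13 and 0.78. The list of mtDNA replication and maintenance genes had 1 of 23 higher, Samhd1, a nucleotide hydrolase that is also an interferon-stimulated gene. Samhd1 had 33872, 46934 and 36106 counts in MSR1 KO and 21471, 23993 and 27434 counts in MSR1 WT libraries, and the groups did not overlap in CPM (log2 fold change 0.78, standard error 0.161, adjusted p = 0.0354 from edgeR), and it was also the most abundant tested gene of its list. The interferon-response genes given above were higher in the same libraries, and their part in the value of Samhd1 was not tested.

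The list of fusion, fission and mitophagy genes had 1 of 25 higher, Fis1, an outer membrane protein known for fission. Fis1 had 2329, 2600 and 2896 counts in MSR1 KO and 1977, 2225 and 1951 counts in MSR1 WT libraries, without overlap in CPM (log2 fold change 0.44, standard error 0.0696, adjusted p = 0.0193 from edgeR). The list of PGC1 regulators had 1 of 35 lower, Lpin1, a phosphatidate phosphatase that also acts as a coactivator with PGC1α in liver. Lpin1 had 1586, 1497 and 2223 counts in MSR1 KO and 2608, 2729 and 2416 counts in MSR1 WT libraries (log2 fold change -0.47, standard error 0.103, adjusted p = 0.0422 from edgeR), again without overlap in CPM. Of these 3 genes, Fis1 and Lpin1 changed by less than 1.5-fold. With 1 library left out, the log2 fold changes ranged from 0.61 to 0.92 for Samhd1, from 0.42 to 0.46 for Fis1 and from -0.54 to -0.38 for Lpin1. Without MSR1 KO replicate 1, MSR1 WT replicate 1 or MSR1 WT replicate 2, 0 of the tested list genes passed in either direction, and calls over all genes also fell, from 805 to 125, 71 and 203. Without MSR1 WT replicate 3, 4 were higher and 0 lower, without MSR1 KO replicate 2, 1 was higher and 1 lower, and without MSR1 KO replicate 3, 2 were higher and 1 lower.

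In the other 5 lists 0 genes passed the adjusted edgeR test in either direction. They were PGC1 partners and transcription factors (24 tested, median log2 fold change -0.05, 3 at an unadjusted p under 0.05), mtDNA transcription and mitochondrial RNA processing (27 tested, 0.02, 1 unadjusted), mitochondrial rRNA modification and translation factors (27 tested, 0.05, 2 unadjusted), mitochondrial ribosomal proteins (79 tested, 0.05, 10 unadjusted) and protein import and chaperones (40 tested, 0.04, 2 unadjusted). The most abundant tested genes of these lists, in the same order, were Cebpb (log2 fold change 0.38, adjusted p = 0.0742 from edgeR), Grsf1 (-0.00038), Oxa1l (0.22, adjusted p = 0.248 from edgeR), Mrps21 (0.11) and Hspa9 (-0.06). In the 3 lists with a called gene the median log2 fold changes were 0.06 (PGC1 regulators, with Ncoa3 at 0.16 as the most abundant gene), 0.07 (mtDNA replication) and 0.04 (fusion, fission and mitophagy, with Pink1 at 0.09 as the most abundant gene).

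**Figure D5:**
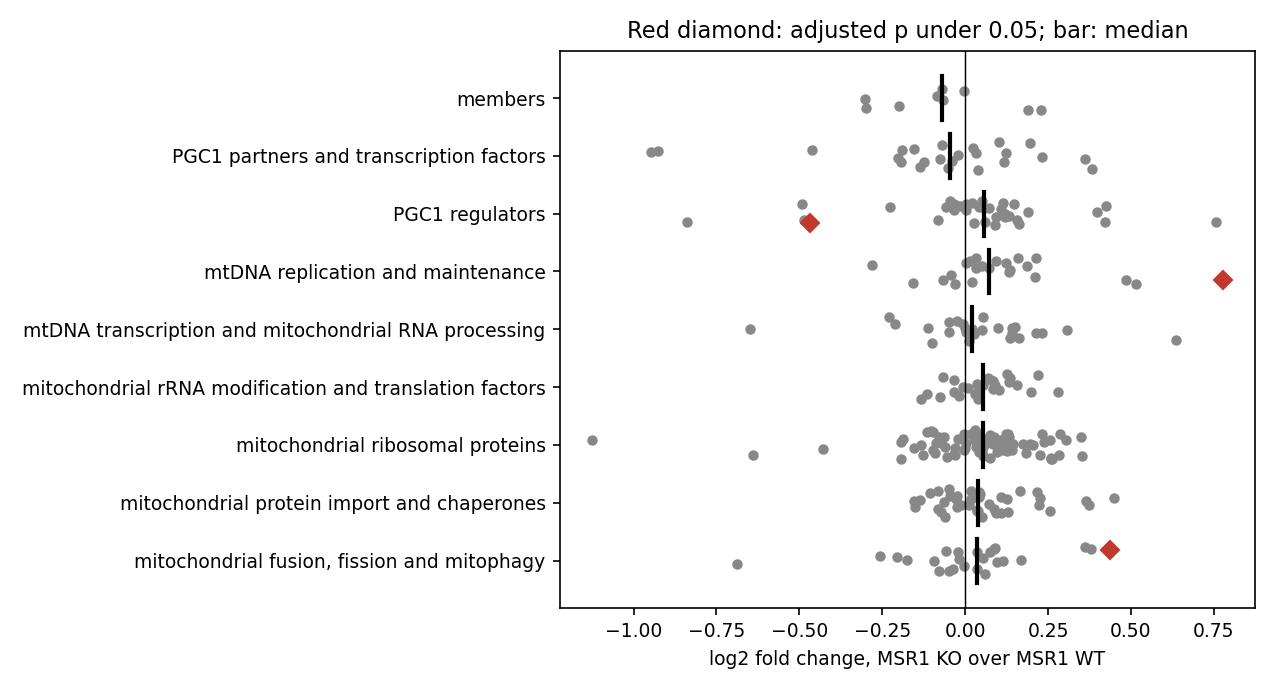
Log2 fold change of MSR1 KO over MSR1 WT for each tested gene (dots) of the 9 members and of the 8 lists, with black bars for the medians and red diamonds for genes at an adjusted p under 0.05. The medians of the lists lie between -0.05 and 0.07, and the diamonds are Lpin1, Samhd1 and Fis1.

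The counting program and its strand setting were not given in the sources used here, and exons of 5 members also belong in part to a gene on the opposite strand. The shared part was 8.57% of the exon bases of Polg (with Fanci), 6.98% of Gabpa (with Atp5j), 3.93% of Tfb1m (with Tiam2), 2.82% of Pprc1 (with Ldb1) and 1.66% of Esrra (with Trmt112). Esrra also shared 2.07% with Mir6990 on its own strand. Ppargc1a, Ppargc1b, Nrf1, Tfam and Tfb2m shared none.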

How the data were processed

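RNA was taken from 3 MSR1 KO and 3 MSR1 WT macrophage cultures kept with BMSCs. The authors deposited raw counts per gene, and beside them a signal column per library (the count divided by a size factor), log2 fold changes and p-values of their own comparison. Here the counts alone were used. Per the labels, reads were processed with fastp 0.17.1, HISAT2 2.1.0, DESeq2 1.18.1 and R 3.4.3, whereas the paper names TopHat and FPKM values. Samples were grouped by genotype from their titles. The sources call them biological replicates but tie none to an animal, so p-values measure the spread between these libraries.

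The 16402 genes that passed filterByExpr were tested with TMM scaling and the quasi-likelihood test of edgeR 4.0.16 (R 4.3.3), with Benjamini-Hochberg adjustment over all of them. Standard errors were taken from the F statistic (its square root dividing the log2 fold change). The 95% intervals use the total degrees of freedom of the edgeR test, that is, residual plus prior. CPM are TMM-scaled, and levels per kb use the union of exons in GENCODE M21 (GRCm38), where 52403 of 52550 gene identifiers were found and 49909 had the same start and end. Promoter sequences are RefSeq's (GRCm38.p6). Limits for 0 counts (3 counts) and counting intervals cover counting error only. The code was tested on simulated counts. The alternatives were DESeq2 1.42.0, DESeq2's size factors, library size alone, no filter, a minimum of 10 counts per library, blocking on replicate number, leaving out each library, and other exon lengths.

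Members and lists were chosen with earlier results of these data known. Named genes were the members, their direct partners, the called genes of each list (up to 3 in each direction with at least 1 CPM) and the most abundant gene of each list. The list of mitochondrial ribosomal proteins took every symbol beginning with Mrpl or Mrps and a digit, pseudogenes included. Assays other than RNA-seq were not analysed here.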

Additional observations from a re-analysis of the deposited data

How the results depend on the processing

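No member passed an adjusted p under 0.05 or met the study's definition of a differentially expressed gene under any of the 12 alternatives (DESeq2, other scalings and filters, the replicate block and each library left out), and the lowest adjusted p of a member was 0.111, for Tfb2m with library size alone. All tested members but Polg kept their direction under all 12. The log2 fold change of Polg turned positive with DESeq2's Wald test (0.00079), with DESeq2's size factors in edgeR (0.00077) and with the replicate block (0.0066), and it ranged from -0.15 to 0.10 with 1 library left out. Among the other named genes, Gabpb2 turned positive without MSR1 KO replicate 3 (0.0017; its range was -0.16 to 0.0017 with 1 library left out), and Grsf1, at -0.00038, turned positive in DESeq2 (0.0046), under its size factors in edgeR (0.0045), with at least 10 counts in every library (0.0025) and with the replicate block (9.45e-05), and ranged from -0.0464 to 0.041 with 1 library left out. The call and direction of Msr1 held under all 12, with a log2 fold change of -2.16 to -1.93.

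Of the 8 lists, the 2 higher and 1 lower gene became 6 and 3 with DESeq2's Wald test, 1 and 0 without a filter, 4 and 1 with at least 10 counts in every library, and 2 and 2 with library size alone. With 1 library left out they ranged from 0 to 4 higher and from 0 to 1 lower, where fewer samples were fitted. With the replicate block, 0 and 0 genes passed, and over all tested genes 137 did, against 805 without it. Same-numbered libraries did not deviate together (correlations of -0.03 to 0.02), so the numbers were not taken to pair libraries. Over all genes the calls ranged from 71 without MSR1 WT replicate 1 to 1568 with DESeq2.

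The mean log2 ratio of Pprc1 to Ppargc1b per kb stayed between 3.07 and 3.30 with 1 library left out. With 5 libraries the exact test cannot give a p below 0.0625, which was its value each time. For the genotype difference of this ratio (-0.42), pairing by replicate number cannot move the value, and the exact sign-flip test over 3 pairs gave p = 0.25, the smallest that 3 pairs allow. With Ppargc1a read at the limit of 3 counts wherever it had 0, its difference between genotypes shrank from -0.0755 to -0.0253 CPM.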
